A study of Rattus norvegicus with 48 samples.

Results

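The 100 most abundant transcripts of control rat liver were examined for their share of the reads and for how this share shifted with diet and time. The set was chosen by measured values: reads were expressed as CPM (reads of a gene per 1000000 reads on genes), genes were ranked by their mean CPM over the 24 animals on the control diet, and the 100 highest were taken after 3 identifiers had been left out. The reads of these 3 identifiers stayed in the total, of which they held 9.12 to 14.6% as group means. The set thus holds 100 of the 32662 genes in the deposited table, and all 100 were among the 12756 genes that passed the filter on low counts. Genes are listed by Ensembl identifier without names, so transcripts are called here by their rank, where rank 1 is the most abundant on the control diet, and the roles of single transcripts are not given. For the same reason the liver label was not checked against marker genes.

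Liver RNA came from male Wistar rats that were 6 weeks old at delivery and housed in pairs. Control animals received a choline-supplemented L-amino acid-defined diet (CSAA). The other animals received an L-amino acid-defined diet without added choline and with 1% cholesterol, labelled "CDDA Cholesterol 1pc" and called CDAA here, which was also lower in methionine and higher in fat than CSAA, so that these differences cannot be told apart. There were 8 animals per diet at each of weeks 4, 8 and 12, and each animal gave 1 liver sample at 1 week, so weeks were compared between different animals.

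Hepatocytes make most proteins of the blood plasma, and a small number of secretory and metabolic transcripts therefore dominates the polyadenylated RNA of a healthy liver. Choline is needed to make the phospholipid that surrounds exported lipoproteins, and a diet without it leads to fat storage, inflammation and scarring of the liver. Read shares of all genes add up to the whole, so a gain of some transcripts lowers the share of others. In whole liver, fewer cells of a type and less RNA per cell cannot be told apart.

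Animals had 13619274 to 22284359 reads on genes, and at this depth counting error is small against the spread between animals for transcripts of this abundance. The mean TMM factor, edgeR's scaling for library composition, was 0.777 to 0.848 in the CSAA groups and 1.07 to 1.37 in the CDAA groups. Fold changes after TMM scaling therefore lie below those of the read shares themselves. Both scales are given for most counts of calls and for the leading transcripts, and fold changes without a named scale are with TMM. On the scale of read shares (library size alone), the median of all 12756 genes was 0.39, 0.65 and 0.73 higher on CDAA at weeks 4, 8 and 12 (log2). Some animals stood apart from their groups. The factor was 0.827 in animal 303 (CDAA, week 4), where the other 7 animals had at least 1.04, and 1.27 in animal 1102 (CDAA, week 12), where the others had at least 1.35. It was 1.01 in animal 504 (CSAA, week 8) and 0.862 in animal 908 (CSAA, week 12), where the others had at most 0.876 and 0.801. Several counts and shares that rest on these animals are given with and without them. Some single transcripts are given without animals 303, 504 and 908, and none without animal 1102.

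The 100 transcripts held over 36% of the reads of every control liver, and a lower mean share on CDAA at each week. At weeks 4, 8 and 12 they took 38.1 ± 1.41%, 37.7 ± 0.98% and 39.7 ± 0.63% of the reads on CSAA and 35.1 ± 1.42%, 34.5 ± 0.92% and 33.6 ± 0.93% on CDAA (SD, n = 8 each). Animals ranged from 36.2 to 40.3%, from 36.2 to 39.02% and from 38.9 to 40.5% on CSAA, and from 33.4 to 37.4%, from 33.3 to 35.7% and from 32.4 to 35.1% on CDAA. The diets overlapped at week 4 and did not overlap at weeks 8 and 12. The mean difference was -3.05, -3.17 and -6.09 percentage points. Without the reads of the 3 identifiers in the total it was -4.98, -5.18 and -9.18 points. Since the transcripts were selected on their level in the CSAA animals, a lower sum on CDAA is favoured by the choice, and these differences are a description without a test.

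**Figure D1:**
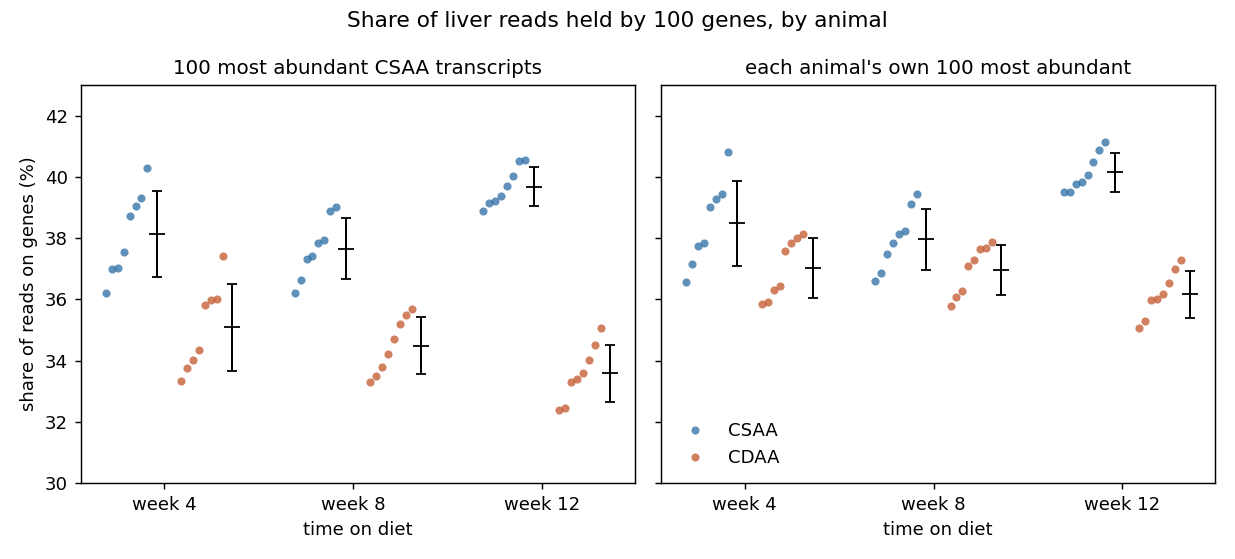
Share of the reads on genes (%, axis from 30 to 43) in each animal by diet and week, for the 100 most abundant CSAA transcripts (left) and for each animal's own 100 most abundant genes (right); points are animals in order of value, and black marks are mean and SD (n = 8). On the left the mean lies between 37.7 and 39.7% on CSAA and between 33.6 and 35.1% on CDAA, and on the right the gap between the diets is smaller, with means of 40.1 and 36.2% at week 12.

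The CDAA animals took no part in the choice, so their weeks could be compared with a test. On CDAA the share at week 12 differed from that at week 4 by -1.497 percentage points (two-sided exact permutation test over all splits of the 16 animals, p = 0.0258, adjusted p = 0.0774 over 3 comparisons), which did not pass 0.05 after adjustment. Week 8 differed from week 4 by -0.60 points (exact permutation test, p = 0.331, adjusted p = 0.331) and week 12 from week 8 by -0.897 points (exact permutation test, p = 0.0741, adjusted p = 0.111). Without animal 303 the difference was -0.267 points between weeks 8 and 4 (exact permutation test, adjusted p = 0.615) and -1.16 points between weeks 12 and 4 (exact permutation test, adjusted p = 0.111). Without animal 1102 the differences of week 12 from weeks 4 and 8 passed, with -1.71 and -1.11 points (exact permutation test, adjusted p = 0.0438 for both), and without animal 306 that of week 12 from week 4 was -1.75 points (exact permutation test, adjusted p = 0.0340). On CSAA, which the choice used, the share differed by -0.487 points between weeks 8 and 4 and by 2.02 points between weeks 12 and 8.

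A measure that treats both diets alike in the choice of genes is the share held by each animal's own 100 most abundant genes, with the same 3 identifiers left out. Their reads stayed in the total here as well. The own share was lower on CDAA at each week. The mean was 37.01 ± 0.98% on CDAA against 38.5 ± 1.40% on CSAA at week 4 (SD, n = 8 each, difference of -1.47 points, two-sided exact permutation test, p = 0.0309, adjusted p = 0.0458 over 3 weeks). At week 8 it was 36.96 ± 0.81% against 37.96 ± 0.99% (SD, n = 8 each, difference of -1.0003 points, exact permutation test, p = 0.0458, adjusted p = 0.0458). At week 12 it was 36.2 ± 0.77% against 40.1 ± 0.62% (SD, n = 8 each, difference of -3.98 points, exact permutation test, p = 0.0001554, the smallest p these 16 animals allow, adjusted p = 0.0004662), and every CDAA animal lay below every CSAA animal. At week 4 the call was lost when animal 102, 104, 107, 108, 301, 302, 306 or 307 was left out, with a difference of -1.13 points and an adjusted p of 0.0605 without animal 102 (exact permutation test). At week 8 it was lost without animal 501, 503, 505, 507, 508, 702, 703, 706, 707 or 708, with a difference of -0.83 points and an adjusted p of 0.0906 without animal 702 (exact permutation test). With 50 genes per animal in place of 100, the difference was -0.633 points at week 4 and 0.691 points at week 8, and neither passed (exact permutation test, adjusted p = 0.316 and 0.171). At week 12 it was -2.53 points (exact permutation test, adjusted p = 0.0004662). With 200 genes per animal the differences were -2.40, -2.60 and -5.77 points (exact permutation test, adjusted p = 0.00249, 0.000233 and 0.000233). With RPKM in place of counts they were -4.32, -3.06 and -6.06 points (exact permutation test, adjusted p = 0.0001554 for each).

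By the group median, reads were spread over more genes on CDAA at each week, which was not tested. Counted over all genes, the 3 left-out identifiers included, the smallest number of genes that together held 50% of the reads had a median of 81, 94 and 71.5 on CSAA and of 120.5, 150.5 and 166.5 on CDAA at weeks 4, 8 and 12. It ranged from 61 to 101 on CSAA and from 86 to 153 on CDAA at week 4, and from 86 to 121 and from 115 to 174 at week 8, with overlap at both. At week 12 it ranged from 66 to 81 on CSAA and from 138 to 204 on CDAA, without overlap. The lower share of the 3 identifiers on CDAA is part of this number. Of the 100 transcripts, 89.4 to 91.8 on average were among the 100 most abundant of a single CSAA animal, and 76.4, 72.5 and 70.1 of a single CDAA animal at weeks 4, 8 and 12. Animal 303 kept 91 of them, whereas the other 7 CDAA animals of week 4 kept 71 to 76.

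Summed by class of rank, the loss of share was uneven. The sum of the highest class includes a single transcript that gained more than the whole class did. The sum therefore does not show that the other transcripts of this class kept their share. Transcript by transcript, mean CPM on CSAA and the log2 fold change at week 12 had a Spearman's rho of 0.03. Ranks 1 to 10 together took 13.5 ± 1.11% of the reads on CSAA and 14.8 ± 0.65% on CDAA at week 4, 12.9 ± 0.61% and 15.1 ± 0.59% at week 8, and 14.7 ± 0.23% and 14.9 ± 0.47% at week 12 (SD, n = 8 each). Ranks 11 to 50 took 16.8 ± 0.52% and 13.8 ± 0.97%, 16.5 ± 0.69% and 13.3 ± 0.32%, and 17.1 ± 0.58% and 12.8 ± 0.33%. Ranks 51 to 100 took 7.90 ± 0.28% and 6.48 ± 0.52%, 8.26 ± 0.41% and 6.14 ± 0.19%, and 7.88 ± 0.13% and 5.83 ± 0.23%. At week 12 the first class overlapped between the diets, whereas every CDAA animal lay below every CSAA animal in the other two.

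The gain of a single transcript, of 2.76, 2.65 and 3.21 points at weeks 4, 8 and 12, was larger than that of the whole highest class. The other transcripts of ranks 1 to 10 together thus lost share on CDAA at each week. ENSRNOG00000030625, of rank 2, took 2.76 ± 0.32%, 2.79 ± 0.51% and 2.35 ± 0.44% of the reads on CSAA and 5.53 ± 0.63%, 5.44 ± 0.43% and 5.56 ± 0.23% on CDAA at weeks 4, 8 and 12 (SD, n = 8 each). Without it the other 99 transcripts took 37.3 ± 0.87% on CSAA and 28.0 ± 0.88% on CDAA at week 12, a difference of -9.29 points in place of -6.09. At week 12 the mean share was higher on CDAA for 24 of the 100 transcripts and lower for 76, with 5.78 points gained, of which 3.21 by rank 2, and 11.9 points lost. At week 4 it was higher for 28 and lower for 72, and at week 8 higher for 30 and lower for 70. After rank 2, the gains at week 12 were led by rank 12 with 0.624 points, rank 8 with 0.495 points and rank 67 with 0.336 points. The losses were led by rank 3 (-0.787 points), rank 4 (-0.755 points), rank 1 (-0.559 points) and rank 6 (-0.424 points).

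**Figure D2:**
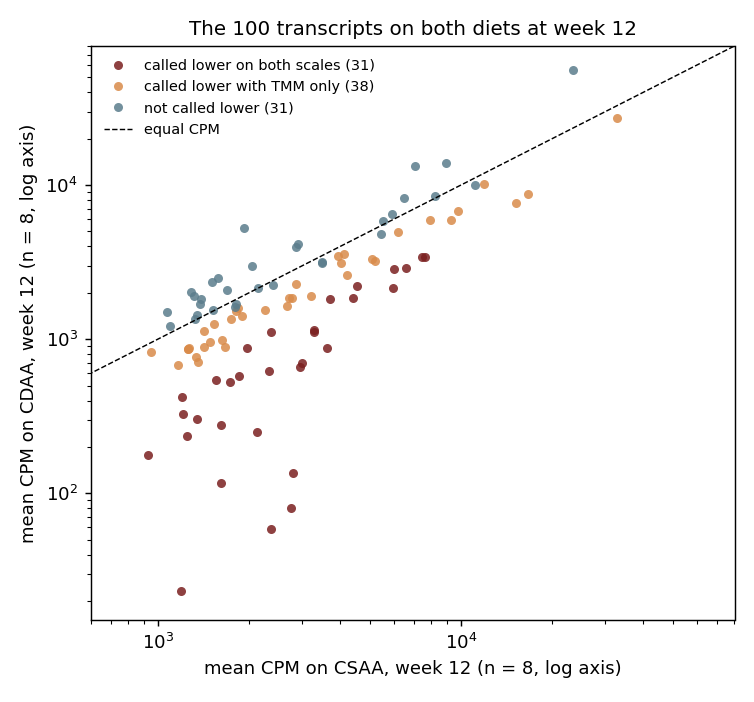
Mean CPM of each of the 100 transcripts on CSAA (horizontal) and CDAA (vertical) at week 12, both on log axes with n = 8 per diet, coloured by whether the transcript was called lower on CDAA with TMM and with library size alone; the dashed line marks equal CPM. 24 points lie above the line and 76 below it, with rank 2 at 23505 CPM on CSAA and 55585 CPM on CDAA at the top and rank 80 at 1196 and 23.1 CPM at the bottom.

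The same rule applied to the 24 CDAA animals gave a list that shared 74 of its 100 genes with the set. The shared genes were all 10 of ranks 1 to 10, 37 of ranks 11 to 50 and 27 of ranks 51 to 100. On CDAA the transcript of rank 2 was the most abundant gene of the list, with a mean of 55077 CPM, and the lowest CDAA rank of any of the 100 transcripts was 1733. The 26 transcripts that were not on the CDAA list took 4.18 ± 0.35% of the reads on CSAA and 1.23 ± 0.14% on CDAA at week 12 (SD, n = 8 each). The 26 genes found only on the CDAA list had a median CSAA rank of 142.5 and a lowest of 990, and took 2.10 ± 0.17% on CSAA and 3.66 ± 0.04% on CDAA (SD, n = 8 each). These 2 groups of genes were defined by the levels themselves, so their shares are a description. Summed over the whole CDAA list, the share was 0.898 and 1.76 points higher on CDAA at weeks 4 and 8 and differed by -1.58 points at week 12.

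The limit of 100 cut through closely spaced levels. Ranks 99 and 100 had a mean of 1182 and 1180.1 CPM on CSAA, and the next genes, at ranks 101 and 102, had 1180.0 and 1162 CPM. Rank 100 varied more than its neighbours, from 186 to 2178 CPM over the 24 animals, and rank 99 varied from 969 to 1323 CPM. The highest mean of the set was 27456 CPM at rank 1. Scaled to gene length, rank 1 was also the highest, with a mean of 17788 RPKM, the deposited level per gene length, on CSAA, followed by rank 6 with 15037 RPKM, rank 7 with 14595 RPKM and rank 2 with 11317 RPKM.

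The spread of the set between animals of a group was as follows. The median coefficient of variation of CPM over the 100 transcripts was 15.02, 11.6 and 14.5% on CSAA and 16.8, 10.4 and 8.47% on CDAA at weeks 4, 8 and 12, where the median over all tested genes was 19.5, 18.8 and 21.3% and 19.2, 13.1 and 12.4%. These medians were not tested against each other. The highest value in the set was 212% for rank 80 on CDAA at week 4, the group of animal 303.

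Gene by gene, far more of the 100 transcripts were lower than higher on CDAA, which the choice of the set favours. With edgeR's quasi-likelihood test and TMM scaling, a transcript was called when its adjusted p was under 0.01 and its log2 fold change was 1 or more in either direction. At week 4, 33 transcripts were called lower and 1 higher, where 4.27% of all 12756 genes were lower and 15.7% higher. Without animal 303, 42 were called lower and 1 higher at that week, where 2910 of 12753 genes were called in either direction. At week 8, 54 were called lower and 0 higher, where 12.1% of all genes were lower and 18.1% higher, with 1 higher by limma-voom and 1 by DESeq2. At week 12, 69 were called lower and 0 higher, where 11.3% of all genes were lower and 19.4% higher, with 0 higher by limma-voom and DESeq2 as well. Of the 100 transcripts, 90, 90 and 94 had an unadjusted p under 0.05 in either direction at the 3 weeks. The median log2 fold change of the set was -0.70, -1.14 and -1.37, against -0.02, 0.05 and -0.09 over all genes.

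On the scale of read shares fewer were called. With library size alone, 20, 27 and 31 transcripts were called lower at weeks 4, 8 and 12, where 1.93%, 4.28% and 2.44% of all genes were, and 3, 2 and 2 were called higher, where 23.3%, 33.6% and 38.1% of all genes were. The median log2 fold change of the set was then -0.33, -0.53 and -0.55, against 0.39, 0.65 and 0.73 over all genes. With the trend on gene length removed in each animal, 26, 38 and 55 were called lower and 1, 1 and 0 higher. Of all 12756 genes, 2567, 3365 and 3699 were then called in either direction. All these calls rest on the contrast that the choice of the set used, and nothing is read from their numbers about the set.

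**Figure D3:**
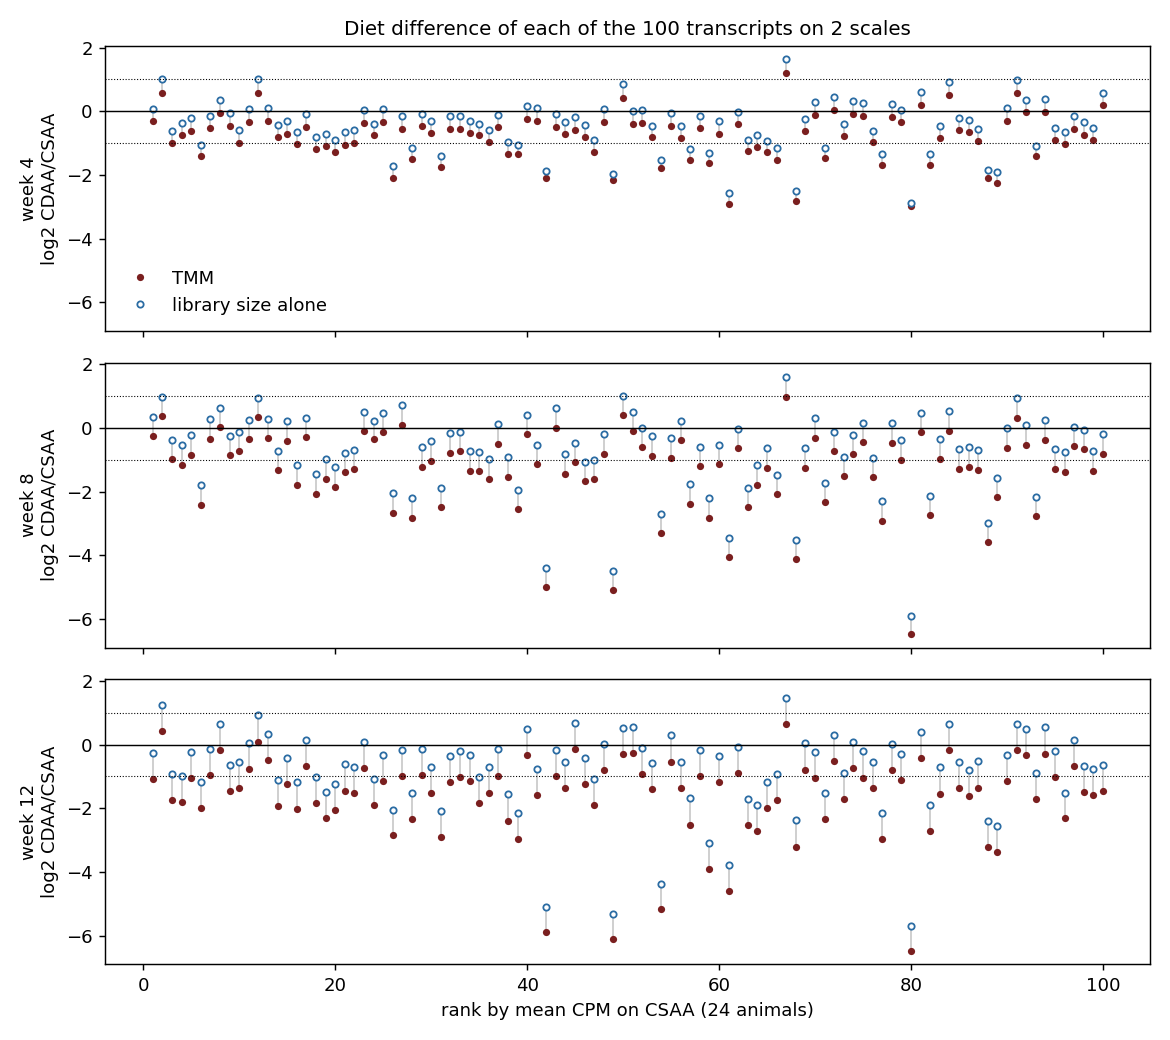
Log2 fold change of CDAA against CSAA (vertical) for each of the 100 transcripts in order of rank by mean CPM on CSAA (horizontal) at weeks 4, 8 and 12, with TMM scaling (filled) and library size alone (open), joined by a line; dotted lines mark a log2 fold change of 1 and -1. Every open point lies above its filled one, and the lowest points, ranks 42, 49, 54, 61 and 80, move away from the rest between week 4 and week 12.

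The calls overlapped over time. They rest on the contrast that the choice of the set used, so the counts are a description and nothing is read from them. In all, 31 transcripts were called lower with TMM at all 3 weeks, 73 at 1 week or more and 27 at no week. Of all genes, 4.27%, 12.1% and 11.3% were called lower at weeks 4, 8 and 12, and their overlap between weeks is not given here. Of the 69 called lower at week 12, 33 were also called at week 4. At week 12, 5 transcripts had a log2 fold change below -4, 19 lay between -4 and -2, 45 between -2 and -1, 28 between -1 and 0, and 3 above 0. With library size alone these numbers were 4, 9, 18, 45 and 24.

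Non-overlap of the read shares gives a count without a model. The 8 CDAA animals all lay below the 8 CSAA animals for 15, 51 and 47 of the 100 transcripts at weeks 4, 8 and 12, where this held for 1.7%, 8.95% and 4.22% of all tested genes. They all lay above them for 6, 16 and 8 transcripts, where this held for 13.9%, 45.9% and 54.7% of all tested genes. The choice of the set from the CSAA animals favours CDAA values below them, so these counts too are a description and nothing is read from them about the set.

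**Figure D4:**
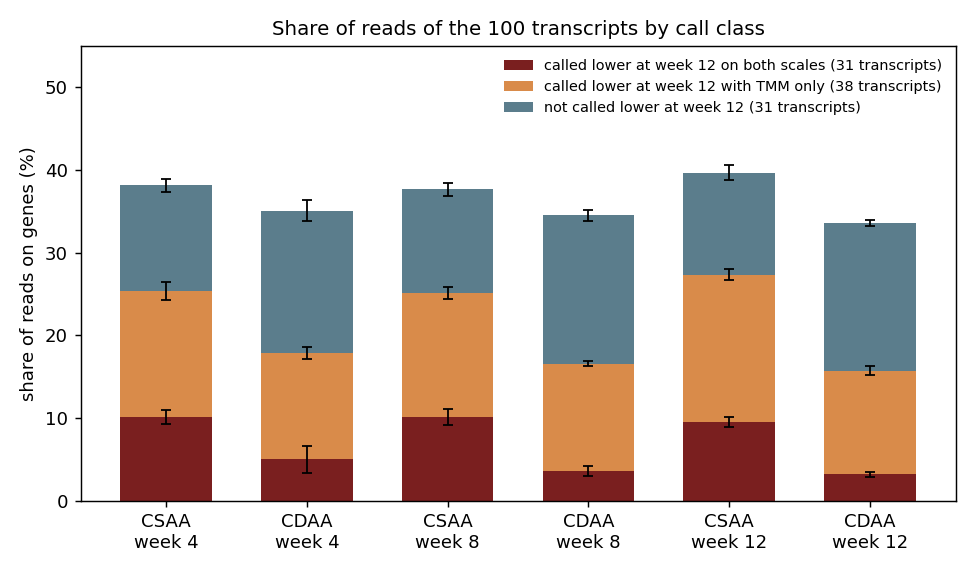
Mean share of the reads on genes (%, stacked bars from 0, error bars are the SD of each class over 8 animals) of the 100 transcripts in each group, divided by their call at week 12. The 31 transcripts called lower on both scales shrink from 9.46 to 3.18% at week 12, and the 31 not called lower grow from 12.4 to 17.9%.

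Divided by their calls at week 12, the transcripts held the following shares. The 31 transcripts called lower on both scales at week 12 took 10.1 ± 0.87%, 10.2 ± 0.95% and 9.46 ± 0.62% of the reads on CSAA and 4.997 ± 1.64%, 3.61 ± 0.59% and 3.18 ± 0.32% on CDAA at weeks 4, 8 and 12 (SD, n = 8 each). The 38 called lower with TMM only took 15.3 ± 1.12%, 14.9 ± 0.68% and 17.8 ± 0.66% on CSAA and 12.9 ± 0.78%, 12.9 ± 0.28% and 12.6 ± 0.53% on CDAA. The 31 that were not called lower took 12.8 ± 0.79%, 12.6 ± 0.77% and 12.4 ± 0.94% on CSAA and 17.2 ± 1.24%, 17.9 ± 0.61% and 17.9 ± 0.37% on CDAA. The classes were made from the differences of week 12, which fixes their direction there, so the shares show their size only.

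The lowest fold changes belonged to a few transcripts of the middle and lower ranks. ENSRNOG00000043131, of rank 80, ranged from 465.9 to 2206 CPM (median of 1423) on CSAA and from 8.28 to 1121 CPM (median of 36.7) on CDAA at week 4. At week 8 it ranged from 733 to 2354 CPM (median of 2122) on CSAA and from 4.47 to 112 CPM (median of 14.3) on CDAA, and at week 12 from 516 to 2118 CPM (median of 1267) and from 4.57 to 83.8 CPM (median of 12.1). Apart from animal 303, with 1121 CPM, every CDAA animal lay below every CSAA animal at all 3 weeks. Its log2 fold change was -2.99 (SE of 0.758), -6.47 (SE of 0.895) and -6.49 (SE of 0.896) at weeks 4, 8 and 12, and without animals 303, 504 and 908 it was -5.27, -6.56 and -6.48.

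ENSRNOG00000009273, of rank 49, was also lower on CDAA, with animal 303 highest among the CDAA animals of week 4. It ranged from 1032 to 3002 CPM (median of 1989) on CSAA and from 107 to 2203 CPM (median of 196) on CDAA at week 4, where the CDAA animals other than 303 reached at most 637 CPM. At week 8 it ranged from 1941 to 3340 CPM (median of 2600) and from 23.5 to 270 CPM (median of 109), and at week 12 from 1463 to 3366 CPM (median of 2336) and from 15.3 to 251 CPM (median of 25.1). The diets did not overlap at weeks 8 and 12. Its log2 fold change was -2.17 (SE of 0.564), -5.09 (SE of 0.643) and -6.10 (SE of 0.674), and without the 3 animals -3.37, -5.09 and -6.05.

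Ranks 42, 54, 61 and 59 came next at week 12. Rank 42 had a median of 2678 CPM on CSAA and 39.3 CPM on CDAA at week 12 (log2 fold change of -5.87, SE of 0.641), rank 54 of 2663 and 75.8 CPM (-5.16, SE of 0.600), rank 61 of 1505 and 125 CPM (-4.60, SE of 0.396) and rank 59 of 2091 and 184 CPM (-3.89, SE of 0.376). None of the CDAA animals reached the lowest CSAA animal of that week in any of the 4. At week 4 the log2 fold changes were -2.10, -1.79, -2.90 and -1.63, and without animals 303, 504 and 908 they were -3.24, -2.73, -3.32 and -2.15. Ranks 89, 88, 68 and 77 completed the 10 lowest at week 12, with log2 fold changes of -3.37, -3.21, -3.20 and -2.96. All of these values are with TMM. With library size alone, ranks 80, 49, 42, 54, 61 and 59 had -5.69, -5.33, -5.10, -4.37, -3.78 and -3.09 at week 12. Ranks 89, 88, 68 and 77 had -2.55, -2.40, -2.38 and -2.14 on that scale.

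With TMM, 9, 7 and 3 of the 100 transcripts had a positive log2 fold change at weeks 4, 8 and 12, and with library size alone 28, 30 and 24 had. ENSRNOG00000012458, of rank 67, ranged from 723 to 2245 CPM (median of 1423) on CSAA and from 1745 to 5499 CPM (median of 4469) on CDAA at week 4. At week 8 it ranged from 1384 to 2806 CPM (median of 1894) and from 4794 to 7356 CPM (median of 6041), and at week 12 from 1350 to 2522 CPM (median of 1975) and from 4473 to 6219 CPM (median of 5317). The diets overlapped at week 4 through animal 303 alone, whose 1745 CPM compared with at least 3771 CPM in the other CDAA animals. With TMM its log2 fold change was 1.21, 0.98 and 0.65, called at week 4 only, and with library size alone 1.64, 1.59 and 1.46, called at each week.

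ENSRNOG00000030625, of rank 2, showed no overlap of the diets in any of the 3 weeks. It ranged from 22235 to 32424 CPM on CSAA and from 41717 to 61496 CPM on CDAA at week 4, from 22779 to 38554 CPM and from 48636 to 60776 CPM at week 8, and from 17195 to 28487 CPM and from 52933 to 58647 CPM at week 12. Its log2 fold change with TMM was 0.58, 0.37 and 0.43 and below the threshold of 1, and with library size alone it was 1.00, 0.96 and 1.24, called at weeks 4 and 12. The third transcript with a positive value at week 12 was rank 12, with a log2 fold change of 0.09 with TMM and 0.91 with library size alone. The other 7 of the 10 highest at week 12 (ranks 45, 91, 84, 8, 51, 94 and 50) had values between -0.30 and -0.15 with TMM and between 0.52 and 0.67 with library size alone, so their sign turned with the scale.

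**Figure D5:**
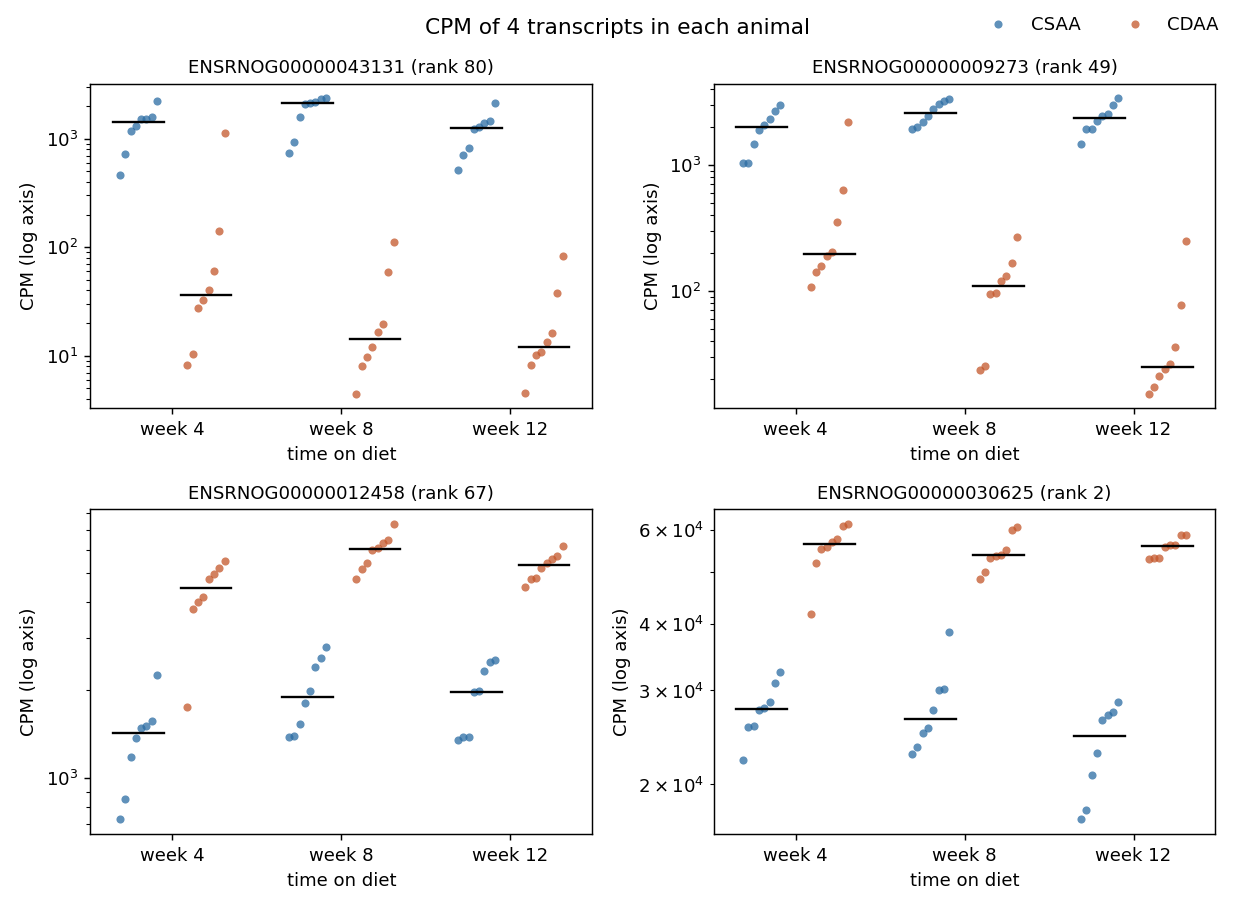
CPM (log axis) of 2 transcripts that were lower and 2 that stood highest on CDAA, in each animal by diet and week; points are animals in order of value and black lines are medians (n = 8). In the upper panels the CDAA animals lie below the CSAA animals except for animal 303 at week 4, and in the lower panels the CDAA animals lie above the CSAA animals except for animal 303 in the transcript of rank 67 at week 4.

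Among the 10 transcripts of the highest ranks, the direction at week 12 was mostly downward with TMM. Rank 1 had a median of 31935 CPM on CSAA and 26872 CPM on CDAA at week 12, with overlap, and a log2 fold change of -1.09 with TMM and -0.27 with library size alone. At week 8 it stood higher on CDAA in every animal, with 28890 to 31767 CPM against 21080 to 28111 CPM, and the log2 fold change was -0.27 with TMM and 0.34 with library size alone. Rank 6 had a median of 12805 CPM on CSAA and 5515 CPM on CDAA at week 4, of 11451 and 3340 CPM at week 8, and of 7552 and 3404 CPM at week 12. Its diets overlapped at week 4 and not at weeks 8 and 12, and its log2 fold change was -1.40, -2.41 and -1.98. Ranks 3, 4, 9 and 10 were also called lower at week 12 with TMM, with log2 fold changes of -1.74, -1.81, -1.46 and -1.37, and rank 5 with -1.06. Ranks 2, 7 and 8 were not called.

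Transcript length differed between the set and other genes. The median length, derived from counts divided by RPKM, was 1.64 kb in the set (0.487 to 14.1 kb) and 2.26 kb over all tested genes. At week 12 the median log2 fold change was -1.71 for the 21 transcripts under 1 kb, -1.59 for the 43 from 1 to 2 kb and -1.09 for the 36 of 2 kb or more, where all tested genes of these lengths had medians of -0.42, -0.22 and 0.06. With the length trend removed the medians of the set were -1.23, -1.18 and -0.91. Whether length plays a part in the differences was not tested. Across the 100 transcripts, which share libraries, Spearman's rho was 0.30 between length and the log2 fold change at week 12 and 0.03 between mean CPM on CSAA and that fold change.

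Changes between weeks on CDAA do not use the CSAA animals and were tested gene by gene in the same fit. From week 4 to week 8, 12 of the 100 transcripts fell and 0 rose, where 1.84% of all genes fell and 3.17% rose. From week 4 to week 12, 21 fell and 0 rose, where 3.13% of all genes fell and 7.43% rose. From week 8 to week 12, 0 fell and 0 rose by edgeR, limma-voom and DESeq2 alike, with an unadjusted p under 0.05 for 22, 27 and 22 of the 100, where 0.102% of all genes fell and 1.33% rose. The counts of 0 that rose between weeks 4 and 8 and between weeks 4 and 12 were also 0 by limma-voom and DESeq2, and 71 and 81 of the 100 had an unadjusted p under 0.05 by edgeR in either direction. With library size alone, 6 and 8 fell from week 4 to weeks 8 and 12, where 0.478% and 0.753% of all genes did. With TMM and only the animals of the groups compared in the fit, 8 and 17 fell. In these fits 579 of 12328 and 1342 of 12606 genes were called in either direction. Animal 303 weighs on these counts: without it, 3 and 8 transcripts were called with TMM in place of 12 and 21. In either direction 481 and 1106 of 12753 genes were then called, in place of 640 and 1347 of 12756. Without animals 303, 504 and 908, 1 and 7 transcripts were called, where 514 and 1136 of 12749 genes were. Without animal 1102, 3 were called between weeks 8 and 12, where 243 of 12744 genes were.

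The falls on CDAA from week 4 to week 12 were led by ranks 42, 49, 80, 54 and 61. Their log2 changes were -3.61, -3.58, -3.57, -2.64 and -2.18 (edgeR, adjusted p = 7.93e-07, 1.85e-06, 0.000131, 4.29e-05 and 1.23e-06). Without animals 303, 504 and 908 they were -2.39, -2.31, -1.21, -1.62 and -1.69 (edgeR, adjusted p = 2.7e-05, 8.65e-05, 0.0645, 0.00225 and 2.3e-05), so rank 80 was no longer called. With all animals and library size alone they were -3.12, -3.09, -2.97, -2.15 and -1.74, each called. In the median of the group, rank 42 went from 309 to 39.3 CPM, rank 49 from 196 to 25.1 CPM and rank 80 from 36.7 to 12.1 CPM. No transcript of the set rose on CDAA between weeks by these thresholds.

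On CSAA, 0 to 4 of the 100 transcripts were called between any 2 weeks. The CSAA values of all weeks chose the set, and a transcript that is high at some weeks can be a member through them, so differences between CSAA weeks are given as a description and nothing is read from their counts. Between weeks 4 and 8, 0 rose and 0 fell by edgeR, limma-voom and DESeq2, with an unadjusted p under 0.05 for 18, 19 and 19, where 0.0314% of all genes rose and 0.0157% fell. Between weeks 8 and 12, 2 were called higher and 2 lower at week 12, where 0.713% and 2.07% of all genes were. Between weeks 4 and 12, 0 were called higher and 3 lower at week 12, where 1.34% and 1.34% of all genes were. The 0 called higher was 1 by limma-voom and 0 by DESeq2, and 55 had an unadjusted p under 0.05 by edgeR in either direction. With the length trend removed, 2 rose and 0 fell between weeks 8 and 12, and 0 rose and 0 fell between weeks 4 and 12. Of all 12756 genes, 218 and 251 were then called in either direction.

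The transcripts called lower on CSAA at week 12 than at week 4 were ranks 93, 68 and 45. Rank 93 had a median of 1688, 1609 and 574 CPM at weeks 4, 8 and 12 (log2 change from week 4 to 12 of -1.38), and ranged from 426 to 717 CPM at week 12. The lowest animal of week 4 had 709 CPM and that of week 8 had 1196 CPM, so week 12 overlapped with week 4 and not with week 8. Rank 68 had a median of 1976, 2348 and 941 CPM (-1.06), and rank 45 of 3311, 2949 and 1469 CPM (-1.03). At week 12, ranks 93 and 68 were called lower and ranks 89 and 24 higher than at week 8. Rank 89 had a median of 760 CPM at week 8 and 1475 CPM at week 12 (log2 change of 1.02), and rank 24 of 2552 and 5334 CPM (1.19), with overlap between the weeks in both.

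How far the diet contrast of one week stood from that of another was read from the interaction of diet and week in the same fit. This contrast includes the CSAA values that chose the set, so calls and sizes are a description here too. From week 4 to week 12 the diet effect was called shifted downward for 20 of the 100 transcripts and upward for 0, where this held for 2.79% and 2.25% of all genes. From week 4 to week 8 it shifted downward for 9 and upward for 0, where 3.03% and 1.22% of all genes did. From week 8 to week 12 it shifted downward for 3 and upward for 1, where 1.09% and 2.92% of all genes did, whereas with library size alone it shifted downward for 0 and upward for 2, where 0.267% and 4.96% of all genes did. With an unadjusted p under 0.05, 47 of the 100 differed with TMM and 50 with library size alone, and limma-voom and DESeq2 each called 2 downward, with 1 and 2 upward. The counts of 0 were also 0 by limma-voom and DESeq2, and 83 and 66 of the 100 had an unadjusted p under 0.05 by edgeR in either direction from week 4 to weeks 12 and 8. With library size alone, 6 and 4 shifted downward from week 4 to weeks 12 and 8, where 0.753% and 1.22% of all genes did. Without animal 303 the counts were 8 and 1 in place of 20 and 9, where 539 and 421 of 12753 genes were called in either direction. With the length trend removed, 10 shifted downward from week 4 to week 12, whereas 0 shifted downward and 1 upward from week 4 to week 8. Of all 12756 genes, 597 and 252 were then called in either direction. From week 8 to week 12, 7 transcripts were called without animal 908 and 8 without animal 1102, in place of 4. Of all genes, 719 of 12755 and 565 of 12744 were then called.

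The most negative differences between weeks 12 and 4 were those of ranks 49, 42, 80, 54 and 59. The differences of the log2 fold change were -3.93, -3.78, -3.50, -3.37 and -2.27 (SE of 0.793, 0.760, 1.03, 0.730 and 0.479). Without animals 303, 504 and 908 they were -2.67, -2.59, -1.22, -2.40 and -1.69, and rank 80 was not called. With all animals and library size alone they were -3.37, -3.22, -2.83, -2.83 and -1.78, and rank 80 was again not called. The difference of rank 64 was -1.61: its median was 1545, 1586 and 2358 CPM on CSAA and 801, 666 and 587 CPM on CDAA at weeks 4, 8 and 12. Rank 100 had medians of 715 CPM on CSAA and 1090 CPM on CDAA at week 4 and of 1635 and 897 CPM at week 12, and is a member through the CSAA weeks at which it was high. Among the highest ranks, the difference was -1.06 for rank 4 and -1.01 for rank 9.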

How the data were processed

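Single-end reads of polyadenylated RNA were aligned by the authors (STAR, rat genome Rnor_6.0) and assigned to Ensembl genes with featureCounts, and the raw counts were deposited. The labels also list FastQC 0.11.2 and Cufflinks. The authors also deposited RPKM values, scaled to gene length and reads on genes, used here for lengths and levels per length. Groups and animals come from the sample labels, columns were matched by name, and 0 columns were left over. Nothing in the labels states which animals shared a cage or a batch, so none was modelled.

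For single genes, edgeR 4.0.16 (R 4.3.3) was used with TMM, its quasi-likelihood test, a coefficient for each of the 6 groups and Benjamini-Hochberg adjustment. The fit held all 48 animals and the 12756 genes that reached 1 CPM in 5 or more animals of some group. The thresholds of the study were kept (adjusted p under 0.01, log2 fold change of 1 or more either way). Differences in share were tested by exact permutation (two-sided, numpy 2.4.6) and adjusted over 3 comparisons. The study's limma-voom (limma 3.58.1), DESeq2 1.42.0 without independent filtering, other scalings, a gene length correction (lowess, span of 0.3), other member rules and left-out animals were alternatives. Counts simulated for week 12 with 200 of 12756 genes changed gave 197 recovered and 2 false calls with edgeR. The measured diet contrast of week 12 had 3917 genes called with TMM, and recovery with that many changed genes was not tested.

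The set, the lists and the alternatives were chosen with earlier results of these data known. The rule was read as leaving out 3 identifiers and then taking 100 genes. Transcripts named are the 20 highest by mean CPM on CSAA, the 10 lowest and 10 highest fold changes at week 12, up to 5 passing ones in each direction of CDAA, CSAA and interaction contrasts of weeks 12 and 4, those at the limit of 100, and the leading changes of share, which were added after the values were seen, as were those named for CSAA between weeks 8 and 12, ranks 64 and 100 in the interaction and ranks 4 and 9 beside them. Identifiers could not be paired with names in the tables used here, so at most 2 identifiers that stood higher and 2 that stood lower are printed, and lists of genes by role, marker genes and promoter sequences were not used here.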

Additional observations from a re-analysis of the deposited data

Results flagged for a closer look

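Animal 303 of CDAA at week 4 lay far from the other 7 animals of its group. It had 91 of the 100 transcripts among its own 100 most abundant genes, where the others had 71 to 76. Its level of ENSRNOG00000043131 was 1121 CPM (others 8.28 to 143 CPM), of ENSRNOG00000009273 2203 CPM (others 107 to 637 CPM) and of ENSRNOG00000012458 1745 CPM (others 3771 to 5499 CPM). In each case its value lay toward the CSAA animals of that week.

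Animal 1102 of CDAA at week 12 had the highest level of ENSRNOG00000043131, with 83.8 CPM (others 4.57 to 37.6 CPM), and of ENSRNOG00000009273, with 251 CPM (others 15.3 to 77.6 CPM). Animal 504 of CSAA at week 8 had the highest level of ENSRNOG00000030625, with 38554 CPM (others 22779 to 30139 CPM). In all, 7 of 42 sets of 8 values held an animal this far from the rest. Chance flags about 1 in 20 such sets, and since these sets share animals and linked measures, with 4 flags from animal 303 and 2 from animal 1102, nothing is read from their number.

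By the interaction of diet and week in edgeR, which includes the CSAA values that chose the set and is a description for that reason, the diet effect was called different between weeks for 9 transcripts (weeks 8 and 4), 4 transcripts (weeks 12 and 8) and 20 transcripts (weeks 12 and 4). For ENSRNOG00000043131 the log2 difference was -3.48 for weeks 8 and 4 and -3.50 for weeks 12 and 4, and for ENSRNOG00000009273 it was -2.92 and -3.93. Without animals 303, 504 and 908 these were -1.29 and -1.22, and -1.72 and -2.67. With all animals and library size alone they were -3.02 and -2.83, neither called, and -2.54 and -3.37. The part of animal 303 in the counts shows in the fits without it, with 1 transcript for weeks 8 and 4 and 8 for weeks 12 and 4.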

How the results depend on the processing

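The member share was lower on CDAA at every week with each choice of the set from CSAA animals and with each animal left out, whereas the list chosen from CDAA turned the direction at weeks 4 and 8 (0.898 and 1.76 points) and gave -1.58 points at week 12. Without the reads of the 3 identifiers in the total the differences were -4.98, -5.18 and -9.18 points, and without rank 2 they were -5.82, -5.81 and -9.29 points, at weeks 4, 8 and 12. Members by mean RPKM gave -4.56 points at week 8. CDAA week 12 minus week 4 passed with members by mean RPKM (-2.04 points, exact permutation test, adjusted p = 0.0112) and without the 3 identifiers in the total (-2.72 points, exact permutation test, adjusted p = 0.0117). With 50 genes per animal, the own share differed by -0.633 points at week 4 and 0.691 points at week 8. With 200 genes per animal, and with RPKM in place of counts, the own share was lower on CDAA and passed at weeks 4, 8 and 12. Leaving out each animal gave ranges of -3.39 to -2.75, -3.37 to -2.97 and -6.30 to -5.91 points for the member share between diets, of -1.74 to -1.13, -1.19 to -0.790 and -4.14 to -3.82 points for the own share, and of -0.849 to -0.267 (weeks 8 and 4), -1.11 to -0.724 (weeks 12 and 8) and -1.75 to -1.16 points (weeks 12 and 4) between CDAA weeks.

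Numbers of transcripts called moved by more than 1.5 times as follows. With library size alone there were 29 and 33 for diet at weeks 8 and 12, 6 and 8 for CDAA weeks 8 and 12 against 4, and 4, 2 and 6 for the interaction of weeks 8 and 4, 12 and 8, and 12 and 4, of which the 2 were upward where 3 of 4 were downward with TMM. With the length trend removed there were 3 and 10 for CDAA weeks 8 and 12 against 4, 2 and 0 for CSAA week 12 against 8 and 4, and 1 and 10 for the interaction of weeks 8 and 12 against 4. Without animals 303, 504 and 908 there were 1 and 7 (CDAA) and 2 and 7 (interaction) against week 4. A test against an absolute log2 fold change of 1 gave 11 for diet at week 4, 0 and 6 for CDAA weeks 8 and 12 against 4, and 0 for CSAA week 12 against 8 and 4 and for the 3 interactions, where edgeR without it gave 4, 3, 9, 4 and 20. limma-voom gave 5 for the interaction of weeks 8 and 4, and the animals of the groups compared alone gave 13 for that of weeks 12 and 4. Leaving out animals 303, 504, 908 and 1102 in turn gave 3 for CDAA weeks 8 and 4 (without 303), 3 for weeks 12 and 8 (without 1102) and 8 to 23 for weeks 12 and 4, and 1 to 9, 4 to 8 and 8 to 23 for the interactions of weeks 8 and 4, 12 and 8, and 12 and 4.

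Between CDAA weeks 4 and 12 ENSRNOG00000012458 had a log2 change near 0 whose sign turned with limma-voom (0.016), DESeq2 and RLE (0.033 each), library size (0.31), the groups compared alone (0.058), without animals 1106 to 1108 (0.020) and with the length trend removed (0.26). That of ENSRNOG00000030625 was 0.0088 with library size, and its diet effect shifted by 0.24 with library size and by 0.050 with the length trend removed. In all of these the cause was not tested. Shares without mitochondrially encoded genes were not run, since no gene names were used. No paired analysis was possible because the animal numbers differ between all groups. The p-values measure the spread between animals, of which pairs shared a cage, and intervals for counting error are small at this depth.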
